A study of Mus musculus with 9 samples.

Results

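The mRNAs of 10 genes that fuse mitochondria, divide them or cut the fusion protein Opa1 were measured in brown adipose tissue of 9 obese mice. The genes were taken by symbol. Mfn1, Mfn2 and Opa1 stand for fusion, Dnm1l, Fis1, Mff, Mief1 and Mief2 for fission, and Oma1 and Yme1l1 for the proteases of Opa1. All 10 were among the 49315 genes counted, and all 10 were among the 14747 genes that passed a filter on low counts. The question of the study was how cotadutide, a peptide that activates the receptors of glucagon and of glucagon-like peptide 1, changes gene expression in this tissue. Of the male C57Bl/6J mice, 5 received cotadutide and 4 received vehicle, injected under the skin once a day for 28 days. Both groups had diet-induced obesity on a 60% high fat diet, weighed about 50 g, were 14 weeks old with 3 weeks of acclimation, carried no altered gene, were single housed and were not kept at thermoneutrality. Each library came from the polyadenylated RNA of 30 mg of tissue of 1 mouse, and held 10.8 to 19.5 M counts (M, mega) in the cotadutide group and 16.1 to 25.1 M counts in the vehicle group.

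Mitochondria form a network that is remodelled by large GTPases. The mitofusins Mfn1 and Mfn2 join outer membranes and Opa1 joins inner membranes and shapes cristae, whereas the Dnm1l product, Drp1, is drawn from the cytosol by the outer membrane receptors Mff, Mief1, Mief2 and Fis1 and constricts the organelle. Oma1, a protease activated by stress, and Yme1l1, an ATP-dependent protease, cut long Opa1 into short forms. In mouse brown adipocytes, adrenergic stimulation through protein kinase A leads to phosphorylation of Drp1 and to fragmented mitochondria that burn fat for heat. Counts per gene measure mRNA, and do not show Opa1 cleavage, Drp1 phosphorylation or the splice forms of Opa1.

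Mfn1 was the 1 gene of the 10 to pass the threshold. It was lower with cotadutide, and Mief1 and Oma1, with fold changes of about the same size, did not pass. The count of 1 in 10 compares with 18.7% of all tested genes called at an adjusted p of 0.05 by edgeR's quasi-likelihood test, 9.31% higher and 9.34% lower with cotadutide. Without library scaling factors the split of all calls was 1049 higher and 1658 lower, against 1373 higher and 1378 lower with them. No member was called higher, by edgeR, DESeq2 or limma-voom, while at an unadjusted p of 0.05 by edgeR 1 was higher and 2 were lower. Fitted changes of the 10 were small, with 3 above 0 and 7 below. Their median log2 fold change was -0.01, against 0.00 for all tested genes, and the median of its size was 0.11, against 0.23 for all tested genes. The tested genes were not matched to the members in expression level. The members were measured with 157 to 8816 counts per library and with standard errors (SE) of 0.07 to 0.13 on the log2 scale.

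**Figure D1:**
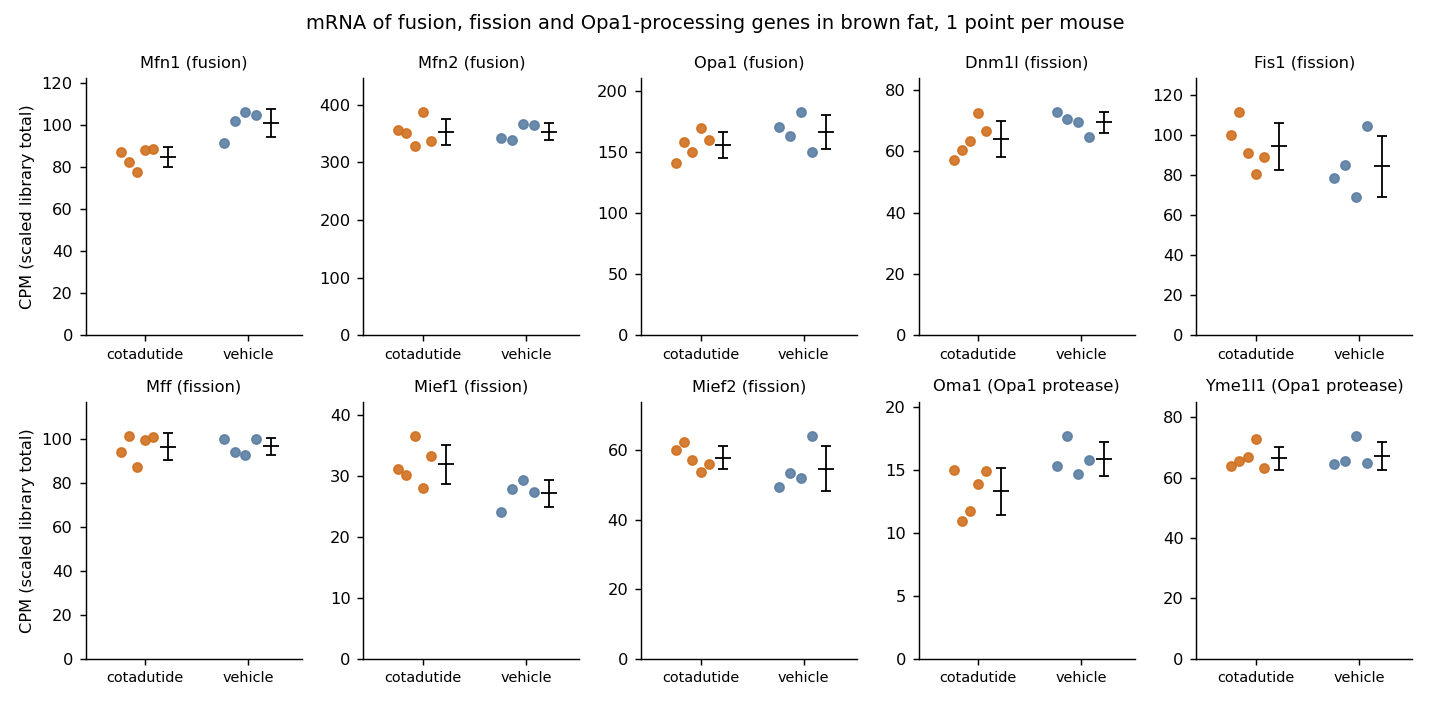
Counts per M of scaled library size (CPM) of the 10 genes, 1 panel a gene, with 1 point per mouse, cotadutide left of vehicle, and the mean with its SD. The Mfn1 points of the 5 cotadutide mice, 77.6 to 88.7 CPM, all lie below those of the 4 vehicle mice, 91.3 to 106 CPM, and the groups overlap in the other 9 panels.

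**Figure D2:**
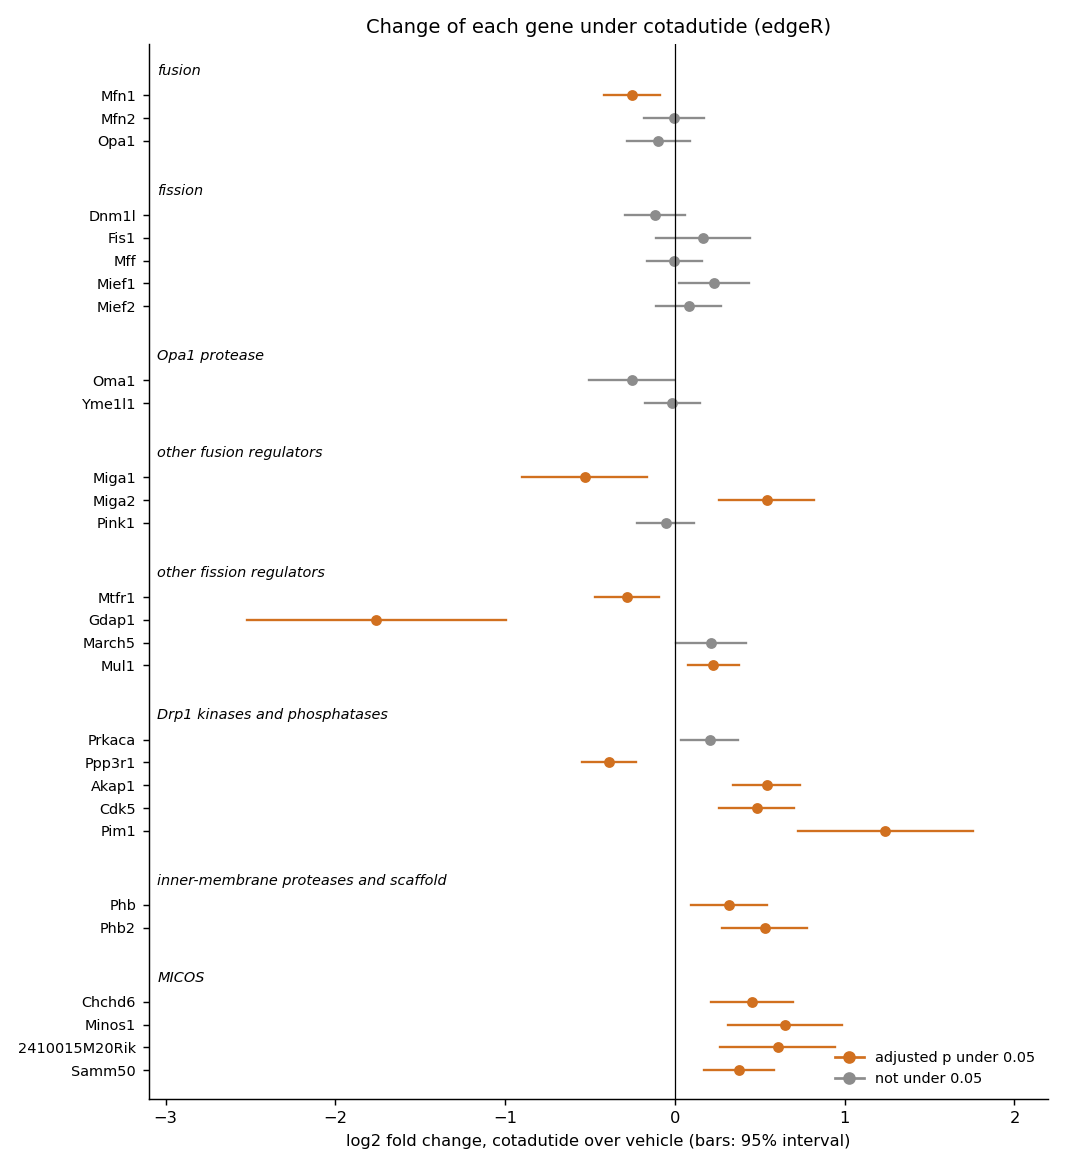
Log2 fold change of cotadutide over vehicle for each of the 10 genes, and for 18 regulators named further below, with its 95% confidence interval. The interval of Mfn1 runs from -0.42 to -0.09, and Mfn1 is the only one of the 10 past an adjusted p of 0.05.

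Of the fusion genes, Mfn1 (ENSMUSG00000027668, chromosome 3 from 32529465 to 32579239 on the plus strand, mm10) encodes the mitofusin that tethers outer membranes. Its level was 87.1, 82.4, 77.6, 88.3 and 88.7 CPM in the cotadutide mice and 91.3, 102, 106 and 105 CPM in the vehicle mice. Every cotadutide mouse was below every vehicle mouse, which 15.8% of all tested genes showed in 1 direction or the other, with 7.79% lower and 8.06% higher in all cotadutide mice. The means were 84.8 ± 4.76 CPM with cotadutide (SD, n = 5) and 101 ± 6.73 CPM with vehicle (SD, n = 4). Mfn1 fell by 0.25 on the log2 scale (SE 0.08), which is 1.19 times lower with an interval of 1.06 to 1.34 times, at an adjusted p of 0.0404 by edgeR. The call was close to the threshold. It was lost on leaving out cotadutide mouse 2 or 3 or any 1 of the 4 vehicle mice, with edgeR's adjusted p between 0.0535 and 0.0917 in those 6 fits. The 3 genes with the profile nearest to that of Mfn1 across the 9 libraries, among 12702 compared, were Ak6, Ecpas and Inpp5a, with root mean square differences of 0.04, 0.05 and 0.05 in centred log2 CPM.

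**Figure D3:**
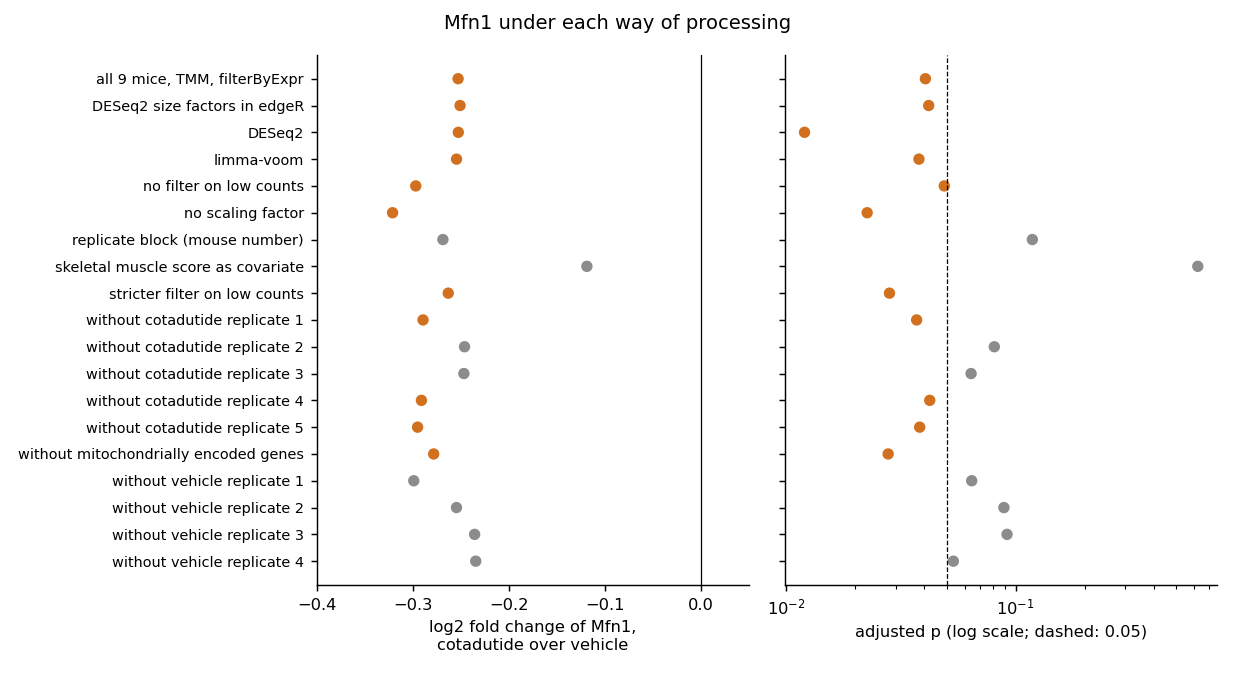
Log2 fold change of Mfn1, cotadutide over vehicle, and its adjusted p under each way of processing, in orange where the adjusted p is under 0.05 and grey elsewhere. The values run from -0.32 without scaling factors to -0.12 with the skeletal muscle score as a covariate, all below 0.

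Mfn2 (ENSMUSG00000029020, chromosome 4 from 147873599 to 147904704, minus strand) encodes the second mitofusin, which also tethers mitochondria to the endoplasmic reticulum. It had 357, 351, 328, 388 and 338 CPM with cotadutide and 343, 339, 368 and 364 CPM with vehicle. The groups overlapped throughout, and the highest and the lowest library were both from cotadutide mice. Its log2 fold change was -0.00 (SE 0.08, interval -0.18 to 0.17, adjusted p = 0.977 by edgeR), an interval that spans 0.883 to 1.13 on the linear scale.

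Opa1 (ENSMUSG00000038084, chromosome 16 from 29579334 to 29654884, plus strand) is the inner membrane fusion GTPase. Its level was 141, 158, 149.6, 169.5 and 159.7 CPM with cotadutide and 170.3, 163, 183 and 149.7 CPM with vehicle. The highest value was from a vehicle mouse and the lowest from a cotadutide mouse, with overlap between the groups. The log2 fold change of Opa1 was -0.10 (SE 0.09, interval -0.29 to 0.09, adjusted p = 0.441 by edgeR).

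Mfn1 passed the test while its paralogue Mfn2 and its partner Opa1 did not. Whether the changes of these genes differ from each other was not tested. The promoters of the 3 fusion genes are shown as a description only. Each holds 250 bases before and 50 bases after the RefSeq start site (GRCm38.p6, written in the direction of the gene, 5′ to 3′), at chr3:32529232-32529531 on the plus strand for Mfn1, chr4:147904649-147904948 on the minus strand for Mfn2 and chr16:29579084-29579383 on the plus strand for Opa1. Capitals mark matches to the ETS motif CCGGAAGT, the NRF1 motif, which is the unbroken run of 10 capitals in Opa1 and reads the same on both strands, and the GC box GGGCGG, each searched on both strands.
Mfn1: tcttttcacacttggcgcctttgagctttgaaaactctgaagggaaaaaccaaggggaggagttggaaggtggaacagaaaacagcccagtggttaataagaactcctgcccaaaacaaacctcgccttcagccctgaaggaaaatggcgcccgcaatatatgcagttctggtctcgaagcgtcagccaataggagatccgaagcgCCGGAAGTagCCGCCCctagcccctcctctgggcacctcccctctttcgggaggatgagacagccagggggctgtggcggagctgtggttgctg
Mfn2: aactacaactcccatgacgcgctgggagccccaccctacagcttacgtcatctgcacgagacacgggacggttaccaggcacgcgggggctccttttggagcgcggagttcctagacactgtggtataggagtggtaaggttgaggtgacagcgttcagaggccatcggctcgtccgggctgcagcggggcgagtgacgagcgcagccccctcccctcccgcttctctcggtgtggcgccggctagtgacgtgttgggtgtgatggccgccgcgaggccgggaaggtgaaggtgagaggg
Opa1: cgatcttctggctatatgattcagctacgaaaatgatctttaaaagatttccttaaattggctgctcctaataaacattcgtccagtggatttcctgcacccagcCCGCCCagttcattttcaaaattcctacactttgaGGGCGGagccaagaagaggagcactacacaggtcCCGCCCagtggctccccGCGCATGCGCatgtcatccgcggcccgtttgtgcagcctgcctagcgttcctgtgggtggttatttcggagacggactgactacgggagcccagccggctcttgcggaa
The Mfn1 window had an ETS match with its first base 44 bases before the start site, followed by a GC box on the opposite strand. The Opa1 window had an NRF1 match and 3 GC boxes, and the Mfn2 window had a match to none of these motifs. Of the 10 members, 3 had an ETS match (Mfn1, Fis1 and Mief1), against 3.89% of 32851 RefSeq promoter windows, and 1 had an NRF1 match, against 0.971%. GC boxes were in 9 of the 10 windows, against 35.7%, and the CCAAT box, searched as CCAAT, was in 7, against 37.4%. The cyclic AMP response element TGACGTCA, in 1.79% of all windows, and the ERR motif TCAAGGTCA, in 0.423%, were in none of the 10. The motifs overlapped nowhere in the Mfn1 window, and a match or its absence in these letters is a description of the window only.

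None of the 5 fission genes was called in either direction by edgeR, DESeq2 or limma-voom, and 1, Mief1, had an unadjusted p under 0.05 by edgeR. Their median log2 fold change was 0.08, against 0.00 for all tested genes.

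Dnm1l (ENSMUSG00000022789, chromosome 16 from 16312235 to 16359030, minus strand) encodes Drp1, the GTPase that constricts mitochondria. It had 57.4, 60.5, 63.4, 72.4 and 66.6 CPM with cotadutide and 72.9, 70.7, 69.5 and 64.8 CPM with vehicle. Of the 5 cotadutide mice, 3 lay below the lowest vehicle mouse and the other 2 within the vehicle range. Dnm1l had a log2 fold change of -0.12 (SE 0.08, interval -0.30 to 0.06, adjusted p = 0.317 by edgeR).

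Of the Drp1 receptors, Mff (ENSMUSG00000026150, chromosome 1 from 82724890 to 82752394, plus strand) is the principal one in most mammalian cells. Its level was 94.2, 102, 87.1, 99.4 and 101 CPM with cotadutide and 99.98, 94.1, 92.9 and 100.1 CPM with vehicle. The vehicle range lay inside the cotadutide range, and the log2 fold change was -0.00 (SE 0.07, interval -0.16 to 0.16, adjusted p = 0.982 by edgeR). Of its 9757 exon bases, 195 (2.00%) overlap the gene C430014B12Rik on the opposite strand, and the counting was not stated to use strand.

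Mief1 (ENSMUSG00000022412, chromosome 15 from 80234080 to 80253366, plus strand) and Mief2 (ENSMUSG00000018599, chromosome 11 from 60728398 to 60732951, plus strand) encode MiD51 and MiD49, a pair of related receptors that bind Drp1. Mief1 had 31.2, 30.2, 36.6, 28.0 and 33.2 CPM with cotadutide and 24.0, 27.8, 29.3 and 27.3 CPM with vehicle. Of the 5 cotadutide mice, 4 exceeded the highest vehicle mouse. The log2 fold change of Mief1 was 0.23 (SE 0.09, interval 0.03 to 0.44), with an unadjusted p of 0.0302 and an adjusted p of 0.101 by edgeR, so it did not pass. Mief2 had 60.0, 62.2, 57.3, 53.6 and 56.0 CPM with cotadutide and 49.4, 53.4, 51.8 and 64.2 CPM with vehicle. All 5 cotadutide mice were above 3 of the vehicle mice and below vehicle mouse 4, the highest of all 9. Its log2 fold change was 0.08 (SE 0.09, interval -0.11 to 0.27, adjusted p = 0.54 by edgeR).

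Fis1 (ENSMUSG00000019054, chromosome 5 from 136953275 to 136966234, plus strand), an outer membrane adaptor with a lesser part in Drp1 recruitment in mammals, had the largest SE of the fold change among the 10. It had 100.2, 112, 90.9, 80.8 and 89.3 CPM with cotadutide and 78.7, 85.0, 69.0 and 105 CPM with vehicle. Vehicle mouse 4 was above 4 of the 5 cotadutide mice, and vehicle mouse 3 was the lowest of all. Fis1 had a log2 fold change of 0.17 (SE 0.13, interval -0.11 to 0.44, adjusted p = 0.37 by edgeR), an interval that spans 0.926 to 1.36 on the linear scale.

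Neither protease of Opa1 was called by edgeR, DESeq2 or limma-voom, and 1, Oma1, had an unadjusted p under 0.05 by edgeR. Oma1 (ENSMUSG00000035069, chromosome 4 from 103313812 to 103371868, plus strand) had 15.0, 11, 11.7, 13.9 and 14.9 CPM with cotadutide and 15.3, 17.7, 14.7 and 15.8 CPM with vehicle. Of the cotadutide mice, 3 were below every vehicle mouse, and the other 2 lay just above the lowest vehicle value. The log2 fold change was -0.26 (SE 0.11, interval -0.51 to -0.01), as large as that of Mfn1, with an unadjusted p of 0.0453 and an adjusted p of 0.131 by edgeR. It rests on the fewest counts of the 10, 157 to 431 per library.

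Yme1l1 (ENSMUSG00000026775, chromosome 2 from 23156369 to 23199260, plus strand) had 63.9, 65.5, 66.8, 72.7 and 63.2 CPM with cotadutide and 64.6, 65.4, 73.9 and 64.8 CPM with vehicle. A single high mouse in each group, cotadutide mouse 4 and vehicle mouse 3, stood above the rest, which all lay within 63.2 to 66.8 CPM. Yme1l1 had a log2 fold change of -0.02 (SE 0.07, interval -0.18 to 0.14, adjusted p = 0.898 by edgeR). A p that misses the threshold does not show that a gene did not differ, and for these 9 genes the intervals give the sizes the data allow.

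Levels of different genes were compared per length, as CPM per kilobase of the exon length in the files. Mfn2 was the most abundant, at 67.8 ± 4.39 CPM per kilobase with cotadutide and 68.0 ± 2.85 with vehicle. Fis1 came next, followed by Mief2, Opa1, Dnm1l, Mfn1, Mff, Yme1l1, Oma1 and Mief1, the last at 5.75 ± 0.585 CPM per kilobase with cotadutide and 4.89 ± 0.402 with vehicle. Of the neighbours in this order, Fis1 and Mief2, Opa1 and Dnm1l, and Mfn1 and Mff did not overlap over the 9 libraries, and the other 6 pairs did. Exon lengths in the files join the exons of all transcripts and can exceed that of the mRNA, as in Mff, with 9757 bases in the files and 1894 in its principal transcript. With principal transcript lengths, a setting chosen after seeing the data, Fis1 was first, at 120.3 CPM per kilobase with cotadutide and 107.3 with vehicle. Mfn2 came next, at 81.2 with cotadutide and 81.4 with vehicle, followed by Mff, at 51.0 with cotadutide and 51.1 with vehicle.

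The balance of fusion to fission mRNA, the sum of Mfn1, Mfn2 and Opa1 over the sum of the 5 fission genes in CPM per kilobase, did not separate the groups. It was 0.919, 0.852, 0.903, 1.11 and 0.949 in the cotadutide mice and 1.06, 1.01, 1.22 and 0.918 in the vehicle mice. The mean was 0.946 ± 0.0975 with cotadutide and 1.05 ± 0.127 with vehicle (SD, n = 5 and n = 4). The difference was smaller than the SD of the vehicle mice and larger than that of the cotadutide mice, and the groups overlapped. The fusion sum was 101 ± 5.72 CPM per kilobase with cotadutide and 106 ± 4.17 with vehicle, and the fission sum was 108 ± 7.07 with cotadutide and 101 ± 10.6 with vehicle. Mfn2 supplied 66.8% of the fusion sum with cotadutide and 64.4% with vehicle, and Fis1 supplied 51.1% of the fission sum with cotadutide and 48.4% with vehicle. With Fis1 left out, the log2 difference of the ratio between the group means was -0.08, against -0.16 with it. The fusion sum without Mfn2, that is Mfn1 and Opa1 alone, was 31.7 to 36.0 CPM per kilobase with cotadutide and 36.1 to 40.6 with vehicle. Here the groups did not overlap, but this sum was not a planned comparison. It contains Mfn1, whose groups were apart on their own, while those of Opa1 overlapped, so it gives no separate support. The size of the ratio depends on the length used. It averaged 0.579 with cotadutide and 0.648 with vehicle with principal transcript lengths, and 1.72 with cotadutide and 1.87 with vehicle without division by length, with overlapping groups in both cases.

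Within pairs of related genes, the CPM ratio of Mfn1 to Mfn2 was 0.244, 0.235, 0.237, 0.228 and 0.263 in the cotadutide mice and 0.266, 0.302, 0.289 and 0.287 in the vehicle mice. The groups did not overlap, although cotadutide mouse 5 and vehicle mouse 1 nearly met. The mean was 0.241 ± 0.0133 with cotadutide and 0.286 ± 0.0145 with vehicle. Library scaling does not enter a ratio within a library. Since Mfn2 hardly differed between the groups, the ratio of Mfn1 to Mfn2 restates the Mfn1 values and gives the Mfn1 call no separate support. The ratio of Oma1 to Yme1l1 averaged 0.201 ± 0.0327 with cotadutide and 0.238 ± 0.0300 with vehicle, and that of Mief1 to Mief2 averaged 0.552 ± 0.0624 with cotadutide and 0.4995 ± 0.0589 with vehicle, both with overlapping groups. These ratios are described with no test.

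**Figure D4:**
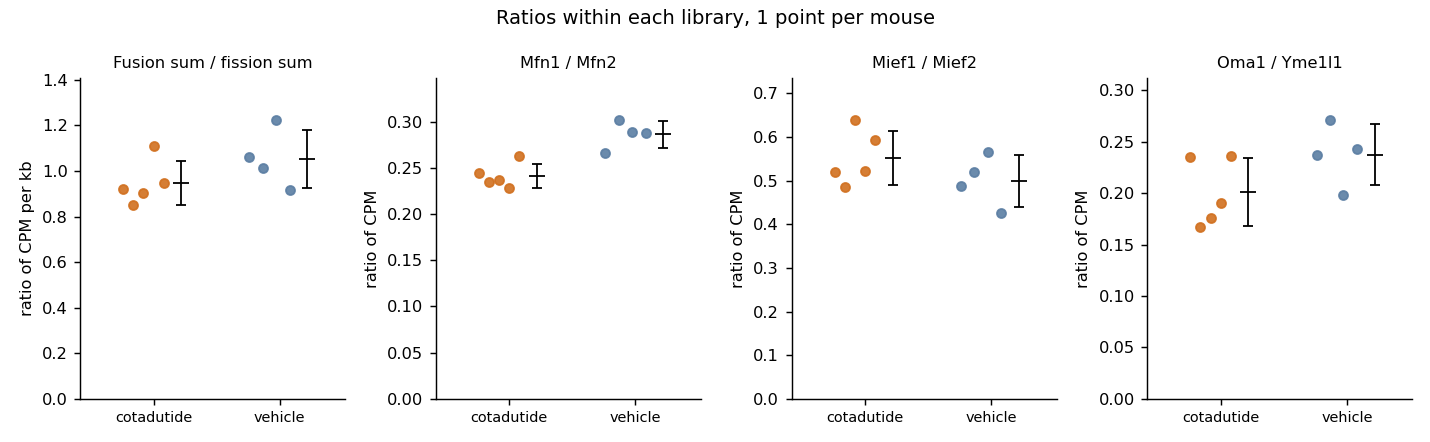
Fusion over fission mRNA (sums in CPM per kilobase) and the CPM ratios of 3 gene pairs, with 1 point per mouse, cotadutide left of vehicle, and the mean with its SD. The groups overlap for fusion over fission, with means of 0.946 with cotadutide and 1.05 with vehicle, and are apart only for Mfn1 over Mfn2, with means of 0.241 and 0.286.

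Marker lists of several cell types also differed between the groups in these libraries, and others did not separate them. Markers listed for brown adipocytes, the cells of the labelled tissue, were abundant as a sum in every library. They were Ucp1, Cidea, Cox8b, Elovl3, Dio2, Pparg, Adipoq, Plin1 and Ppargc1a, not all of them specific to brown adipocytes. Of 9 such markers, 3 were higher and 0 were lower with cotadutide by edgeR, and also 0 lower at an unadjusted p of 0.05 and by DESeq2 or limma-voom. Their sum was 12738 to 17436 CPM with cotadutide and 9010 to 12675 CPM with vehicle, without overlap. For scale, edgeR called 9.31% of all tested genes higher and 9.34% lower, and 15.8% of single genes had groups that did not overlap. Of 12 skeletal muscle markers, 7 were lower and 0 higher by edgeR, and 12 were lower and 0 higher at an unadjusted p of 0.05. Their sum was 4443 to 16698 CPM with cotadutide and 19356 to 41658 CPM with vehicle, without overlap, and no marker was at 0 in any list. Of 9 macrophage markers, 5 were lower, with overlapping sums of 210 to 441 CPM with cotadutide and 334 to 571 CPM with vehicle. Of 4 white adipocyte markers, 3 were lower, with overlapping sums of 114 to 374 CPM with cotadutide and 279 to 894 CPM with vehicle. None of 6 fibroblast markers was called by edgeR, although 3 were lower at an unadjusted p of 0.05 and 2 were called lower by DESeq2 and by limma-voom. The fibroblast sums overlapped, at 491 to 1113 CPM with cotadutide and 849 to 1333 CPM with vehicle. Of 5 endothelial, 4 erythroid and 4 Schwann and neuronal markers, edgeR, DESeq2 and limma-voom called 0, with 1 erythroid marker at an unadjusted p under 0.05 by edgeR. Their sums overlapped between the groups, at 457 to 617 CPM with cotadutide and 403 to 564 CPM with vehicle for endothelial, 434 to 927 CPM with cotadutide and 497 to 775 CPM with vehicle for erythroid, and 225 to 280 CPM with cotadutide and 269 to 330.03 CPM with vehicle for Schwann and neuronal markers. Fewer cells of a type and less RNA per cell cannot be told apart in bulk tissue. With a score of the muscle markers in the model, edgeR called none of the tested genes, with 2140 at an unadjusted p under 0.05, and the log2 fold change of Mfn1 was -0.12 with an adjusted p of 0.622. Since the muscle scores of the groups do not overlap, treatment and muscle mRNA cannot be told apart here for Mfn1 or for the genes that follow.

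Around the 10 genes, 48 genes that regulate fusion, fission and cristae were listed in 5 groups, and 46 were tested. Of these, 11 were higher and 6 lower with cotadutide, 37.0% called against 18.7% of all tested genes. Their median log2 fold change was 0.12, against 0.00 for all tested genes. The split of their calls depended on scaling. It was 9 higher and 8 lower without library scaling factors, and 9 higher and 7 lower without the mitochondrially encoded genes. With DESeq2 size factors in edgeR it was 10 higher and 5 lower, by DESeq2 13 and 7, and by limma-voom 12 and 6. The groups did not overlap in 14 of the 46, and in 15.8% of all tested genes. The lists were chosen with earlier results of these data known, and the tested genes were not matched to them in expression level. The shares called here and in each list below are therefore descriptions, and an excess over all tested genes was not tested. The calls of the 46 also depend on single libraries. Leaving out cotadutide mouse 3 gave a count of 10, and leaving out vehicle mouse 3, 1 or 2 gave counts of 5, 2 and 1. In the same fits the calls over all genes were 1364, 738, 139 and 147, against 2751 in all 9 libraries. The count for the regulators was 8 with the mouse number as a block. Of the regulators named below, Miga1, Mtfr1, Mul1, Phb, Phb2, Minos1, 2410015M20Rik and Samm50 lost their calls with that block. Their adjusted p by edgeR was then between 0.0534 and 0.144, and these losses are not repeated gene by gene. With the muscle score in the model, edgeR called 0 of the 46, with 11 higher and 5 lower at an unadjusted p under 0.05.

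Among 8 other regulators of fusion, 1 was higher and 1 lower, 25.0% called against 18.7% of all tested genes. Miga2, an outer membrane mitoguardin that promotes fusion, had 156, 197, 183, 198 and 174 CPM with cotadutide and 112, 103, 124 and 159.7 CPM with vehicle. Only vehicle mouse 4 reached into the cotadutide range, and the level was 1.46-fold higher with cotadutide (log2 fold change 0.54, SE 0.13, adjusted p = 0.0213 by edgeR). Its relative Miga1, far scarcer, had 2.31 to 3.46 CPM with cotadutide and 3.45 to 4.54 CPM with vehicle, and fell by 0.53 on the log2 scale (SE 0.17, adjusted p = 0.0482 by edgeR), with a single pair of mice overlapping. Leaving out any 1 of the 9 libraries ended the call of Miga1 (edgeR's adjusted p between 0.0549 and 0.126), as did DESeq2 size factors in edgeR (0.0512) and no filter on low counts (0.0656), and the call of Miga2 was lost without vehicle mouse 1, 2 or 3 (0.0578 to 0.0719). Pink1, the kinase that starts removal of damaged mitochondria and the most abundant of the list per length, averaged 477 ± 24.4 CPM with cotadutide and 495 ± 9.53 CPM with vehicle (log2 fold change -0.05, adjusted p = 0.65 by edgeR).

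Among 10 tested regulators of fission, 1 was higher and 2 lower, 30.0% called against 18.7% of all tested genes. Mul1, an outer membrane ubiquitin and SUMO ligase, had 64.2 to 69.7 CPM in all 5 cotadutide mice, above the 54.7 to 63.4 CPM of the vehicle mice. It was 1.17-fold higher (log2 fold change 0.22, SE 0.07, adjusted p = 0.0434 by edgeR). It was not called without library scaling factors (edgeR's adjusted p = 0.097), without the mitochondrially encoded genes (0.0567), without a filter on low counts (0.261) or on leaving out any 1 library other than vehicle mouse 4 (0.0706 to 0.136). Gdap1, an outer membrane protein whose excess fragments mitochondria, had 0.772, 0.513, 0.498, 1.05 and 1.33 CPM with cotadutide and 1.75, 3.87, 1.89 and 3.62 CPM with vehicle. The groups did not overlap, and Gdap1 fell by 1.76 on the log2 scale (SE 0.35, adjusted p = 0.0163 by edgeR), from a very low level. This call was lost without vehicle mouse 2 (edgeR's adjusted p = 0.0514). Mtfr1 averaged 27.4 ± 2.40 CPM with cotadutide and 33.3 ± 2.49 CPM with vehicle, a log2 fold change of -0.28 (SE 0.09, adjusted p = 0.0447 by edgeR), with a single pair of mice overlapping, and was not called without cotadutide mouse 1, 2 or 3 or vehicle mouse 1, 2 or 3 (0.0514 to 0.123). March5, a ubiquitin ligase of the outer membrane and the most abundant of the list per length, averaged 233 ± 25.1 CPM with cotadutide and 201 ± 9.49 CPM with vehicle and did not pass (adjusted p = 0.131 by edgeR). Mtfr2 was not tested, with 13 counts in all cotadutide libraries and 27 in all vehicle libraries.

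Of 11 tested genes for kinases, phosphatases and anchors that act on Drp1, 3 were higher and 3 lower. That is 54.5% called, against 18.7% of all tested genes. Akap1, which anchors protein kinase A to the outer membrane, had 339.8, 367, 421, 345 and 386 CPM with cotadutide and 238, 249, 262 and 273 CPM with vehicle. Every cotadutide mouse exceeded every vehicle mouse, and the level was 1.45-fold higher (log2 fold change 0.54, SE 0.09, adjusted p = 0.014 by edgeR). Pim1, a serine/threonine kinase, had 67.6, 147, 111, 66.6 and 71.1 CPM with cotadutide and 35.9, 43.0, 41.0 and 37.1 CPM with vehicle. The groups were apart, with cotadutide mice 2 and 3 far above the other 3, and Pim1 was 2.36-fold higher (log2 fold change 1.24, SE 0.23, adjusted p = 0.0158 by edgeR). Cdk5, a kinase best known in neurons, averaged 59.9 ± 7.81 CPM with cotadutide and 42.9 ± 3.49 CPM with vehicle, without overlap (1.40-fold higher, adjusted p = 0.0171 by edgeR). Ppp3r1, the regulatory subunit of calcineurin, the phosphatase that releases Drp1 to mitochondria, had 46.6 to 55.1 CPM with cotadutide and 65.1 to 69.2 CPM with vehicle. It was 1.31 times lower without overlap (log2 fold change -0.39, SE 0.07, adjusted p = 0.0147 by edgeR). On leaving out 1 library, Akap1 lost its call without vehicle mouse 2, Ppp3r1 without vehicle mouse 1, Pim1 without vehicle mouse 1 or without vehicle mouse 2, and Cdk5 without vehicle mouse 1, 2 or 3, with edgeR's adjusted p between 0.0503 and 0.0586. The other 2 lower genes, named here after their values were seen, were the calcineurin catalytic subunit Ppp3cb, with a log2 fold change of -0.36, and the mitotic kinase Cdk1, with -1.48 at a mean of 0.655 CPM with cotadutide and 1.75 CPM with vehicle. Prkaca, the catalytic subunit of protein kinase A and the most abundant of the list per length, averaged 252 ± 13.3 CPM with cotadutide and 219 ± 9.75 CPM with vehicle, with no overlap. It was not called by edgeR (adjusted p = 0.0821) and was called by DESeq2 (adjusted p = 0.0248). Ppp2r2b was not tested, with 12 counts in all cotadutide libraries and 21 in all vehicle libraries.

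Of 8 genes for inner membrane proteases and their scaffold, 2 were higher and 0 lower by edgeR, 25.0% called against 18.7% of all tested genes. By DESeq2 or limma-voom 0 were lower, with 1 lower at an unadjusted p of 0.05 by edgeR. Both higher genes were prohibitins, which form the inner membrane ring that holds long Opa1. Phb2 had 363, 456, 373, 344 and 371 CPM with cotadutide and 249, 256, 235 and 318 CPM with vehicle. The groups did not overlap, and Phb2 was 1.44-fold higher (log2 fold change 0.53, SE 0.11, adjusted p = 0.0178 by edgeR). Phb, the most abundant of the list per length, averaged 417 ± 46.4 CPM with cotadutide and 334 ± 28.0 CPM with vehicle (log2 fold change 0.32, SE 0.10, adjusted p = 0.049 by edgeR), with overlap. Phb lost its call in 14 of 18 alternatives, among them DESeq2 size factors in edgeR (adjusted p = 0.0573), no scaling factors (0.0548), a stricter filter (0.0559), no filter (0.11), no mitochondrially encoded genes (0.0606) and leaving out any 1 library other than cotadutide mouse 4 or vehicle mouse 4 (0.086 to 0.157). Phb2 lost its call without vehicle mouse 1, 2 or 3 (0.0557 to 0.0609).

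Of 9 genes of the MICOS complex, which holds crista junctions together with Opa1, and its outer membrane partners, 4 were higher and 0 lower by edgeR, with 0 lower at an unadjusted p of 0.05 and by DESeq2 or limma-voom. The share called by edgeR was 44.4%, against 18.7% of all tested genes. Minos1, which bends the membrane at the junction, averaged 446 ± 85.3 CPM with cotadutide and 284 ± 51.2 CPM with vehicle. It was 1.57-fold higher, with a narrow overlap (log2 fold change 0.65, SE 0.15, adjusted p = 0.0216 by edgeR). The gene listed as 2410015M20Rik, whose RefSeq synonym is Micos13 and which links the subcomplexes, averaged 308 ± 58.3 CPM with cotadutide and 202 ± 39.5 CPM with vehicle (1.52-fold higher, adjusted p = 0.0254 by edgeR), without overlap. Chchd6, a peripheral subunit, averaged 52.8 ± 8.67 CPM with cotadutide and 38.6 ± 2.37 CPM with vehicle (log2 fold change 0.45, adjusted p = 0.0231 by edgeR), and Samm50, of the outer membrane, averaged 428 ± 45.6 CPM with cotadutide and 329.9 ± 15.2 CPM with vehicle (log2 fold change 0.37, adjusted p = 0.0246 by edgeR), both without overlap. All 4 calls were lost without vehicle mouse 1, 2 or 3 (edgeR's adjusted p between 0.0656 and 0.0816), and those of Chchd6, 2410015M20Rik and Samm50 also without cotadutide mouse 3 (0.0516 to 0.0625). The core subunit Immt, named here after its values were seen, had a log2 fold change of -0.03 (adjusted p = 0.844 by edgeR).

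**Figure D5:**
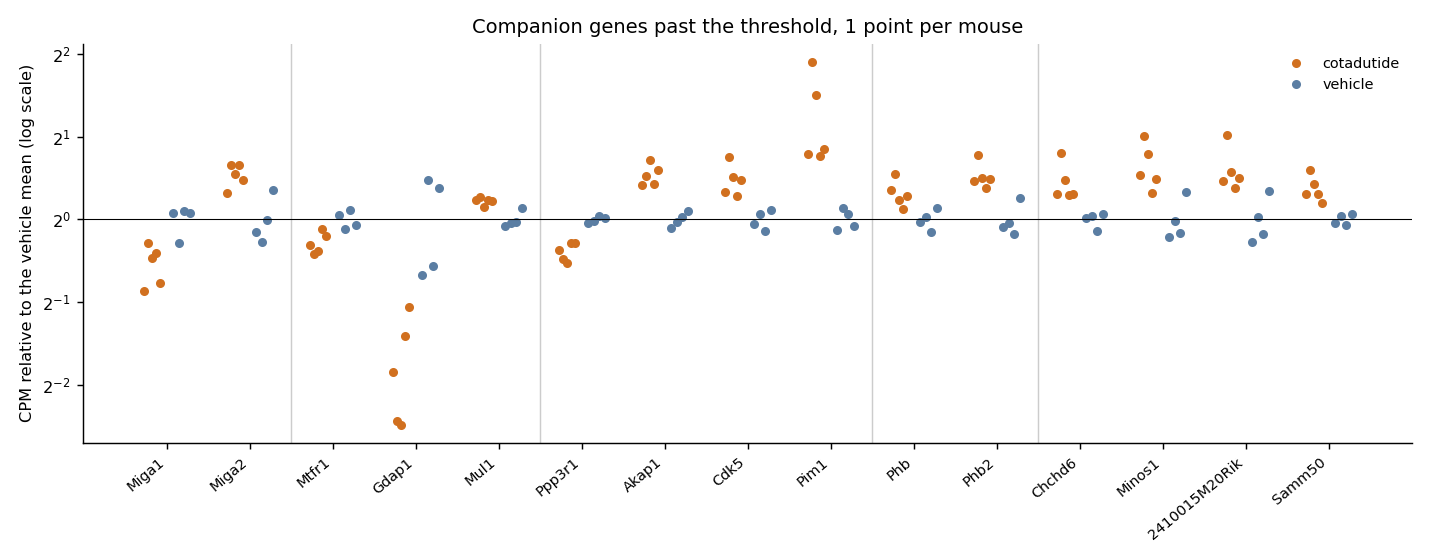
CPM relative to the vehicle mean, on a log scale with 1 point per mouse, for the regulators named by rule that passed an adjusted p of 0.05 by edgeR. The log2 fold changes of these genes run from -1.76 (Gdap1) to 1.24 (Pim1). Of all 46 tested regulators, 11 were called higher and 6 lower, and the called genes Ppp3cb and Cdk1 are not drawn.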

How the data were processed

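RNA of brown adipose tissue was sequenced in 9 mice, 1 library each. Each deposited file lists whole-number counts for the Ensembl genes of 1 library, not normalized by the authors. Per the submitters' processing notes, the build was mm10 and the tools were STAR 2.5.2b, Trimmomatic 0.36, bcl2fastq 2.17 and featureCounts (Subread 1.5.2). How the counting treated strand, and its annotation release, is not given in the sources used here. Libraries were made from polyA RNA with the NEBNext Ultra kit, per the labels' protocols. The labels gave the group and the number of each mouse. No 2 libraries were alike within counting noise (lowest chi-square per degree of freedom 11.5), so each counted as 1 replicate.

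Of the 49315 identifiers, 48970 matched a symbol of the supplied annotation, and the other 345 held 0.0310% of the counts. edgeR 4.0.16 in R 4.3.3 filtered genes with filterByExpr, which left 14747 genes with 99.87% of the counts, scaled libraries by the trimmed mean of M values (factors 0.915 to 1.06) and tested them with glmQLFit (robust) and glmQLFTest, the group as the only term, two-sided, at a Benjamini-Hochberg adjusted p of 0.05 over all 14747. The common biological coefficient of variation was 17.0%. CPM are counts per M (mega) of scaled library size. The SE was obtained from the F statistic, as the absolute log2 fold change over the root of F. Alternatives were DESeq2 1.42.0, limma-voom of limma 3.58.1, other scalings and filters, a replicate block, a muscle score as covariate and leaving out each library. The scripts were tested on simulated data. Promoters and motifs were read from RefSeq windows (GRCm38.p6) for all 10 members.

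The members and gene lists were chosen with earlier results of these data known. Named were all 10 members, in each list the called genes (at most 4, by smallest adjusted p) and the most abundant gene per length, and the 3 genes most alike to each called member. Mfn1 shares 0.885% of its 50-base windows with transcripts of other genes, and Dnm1l, the highest of the 10, shares 4.90%.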

Additional observations from a re-analysis of the deposited data

Results flagged for a closer look

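In 64 groups of 4 or 5 mice, 1 gene or ratio in 1 treatment group each, 6 held a mouse far from the rest of its group by Dixon's test at the 95% level. Chance gives about 1 in 20 such groups. Yme1l1 in vehicle mouse 3 was the highest of its group, at 73.9 CPM. Miga1 in vehicle mouse 2 was the lowest of its group, at 3.45 CPM. Pink1 was lowest in cotadutide mouse 3, at 434 CPM, and in the vehicle group lowest in mouse 2, at 481 CPM. Cotadutide mouse 2 was the highest of its group for Phb2, at 456 CPM, and for 2410015M20Rik, at 409 CPM.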

How the results depend on the processing

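The count of genes called, 2751, was 1284 with the mouse number as a replicate block, 0 with the muscle score as a covariate, and 139 to 3704 on leaving out 1 library (139, 147 and 738 without vehicle mouse 1, 2 or 3, and 814 without cotadutide mouse 2). Members called numbered 0 with the block, 0 with the covariate and 0 to 1 on leaving out 1 library. Regulators called numbered 8 with the block, 0 with the covariate and 1 to 19 on leaving out 1 library. The log2 fold change of Mfn1 was -0.27 with the block (adjusted p = 0.118 by edgeR), -0.12 with the covariate and -0.30 to -0.23 on leaving out 1 library, with adjusted p over all alternatives from 0.012 by DESeq2 to 0.622 with the covariate. The cause of these shifts was not tested. For the other 27 named genes under 18 alternatives, 381 values kept direction and side of the threshold, 92 lost a call, 1 gained one and 12 changed sign, in 5 uncalled genes. Mfn2 was 0.0091 with the block, 0.058 with the covariate and -0.064 to 0.012 on leaving out 1 library. Mff was 0.081 with the covariate and -0.044 to 0.015 on leaving out 1 library. Yme1l1 was 0.0012 with the block and -0.075 to 0.025 on leaving out 1 library. With the covariate, Oma1 was 0.0011 and Pink1 0.040. Mouse numbers gave little sign of pairing the mice. Correlations of same-numbered deviations ran from -0.04 to 0.14, and only 1 cotadutide mouse correlated best with its own number. Such a check over all genes cannot exclude a small effect shared by same-numbered mice. The fusion to fission ratio kept its direction in every alternative, from -0.22 to -0.08 on leaving out 1 library. These alternatives reuse the same libraries and genes, so the constant direction gives no separate support. Over all 9 libraries, the groups overlapped with each way of forming the ratio. Of the members, Oma1 had the fewest counts, 157 to 431 per library, and its SE, 0.11, was below that of Fis1, 0.13.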
